A study of Arabidopsis thaliana with 9 samples.

Results

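The 10 genes described here encode enzymes of chlorophyll synthesis in Arabidopsis thaliana. They are HEMA1, CHLH (also called GUN5), CHLI1, CHLD, CHLM, CRD1, PORA, PORB, PORC and CAO. They were chosen by locus, and each locus had 1 probe among the 25665 loci on the array. All 10 probes were well above background on all 9 arrays, so all 10 were among the 21043 genes tested. Transcripts were measured in whole seedlings of the accession Col-0, aged 3 weeks, grown under continuous light and kept in shaken liquid medium. Silver nitrate (AgNO3) was added to 0.1 mM, and seedlings were taken before it (0 h) or after 48 h or 72 h in it, with 3 arrays per time from separate experiments with different plants. The seedlings of 0 h were the only reference, so an effect of silver cannot be told apart from that of the added hours in culture. RNA came from whole plants, so fewer green cells and less RNA per green cell cannot be told apart either.

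Chlorophyll is made in the plastid by nucleus-encoded enzymes. Glutamyl-tRNA reductase starts the path to 5-aminolevulinic acid, from which protoporphyrin IX is built. Magnesium chelatase commits this ring to chlorophyll, whereas ferrochelatase sends it to heme. A methyltransferase, a cyclase, a light-driven reductase and, for chlorophyll b, an oxygenase follow. Free intermediates are phototoxic, and in green tissue the transcripts of these enzymes are known to follow light and the state of the plastid.

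Transcripts of 9 of the 10 genes fell, at 48 h as at 72 h, and CAO did not pass the test at either time. The falls ran from 2.14-fold (PORC) to 15.8-fold (PORA) at 48 h and from 2.69-fold (CHLD) to 21.3-fold (PORA) at 72 h. The start of the pathway, HEMA1, and the porphyrin-binding subunit of magnesium chelatase, CHLH, had the next largest falls after PORA at both times. None of the 10 was called between 72 h and 48 h (adjusted p between 0.435 and 0.975), where limma called 0% of all genes and 9.22% had an unadjusted p under 0.05.

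Of all genes tested, 15.8% were called lower at 48 h and 19.6% at 72 h, by limma with Benjamini-Hochberg adjustment at 0.05. The median log2 change of the 10 genes was -1.31 at 48 h and -1.58 at 72 h, against 0.014 and 0.0015 over all genes. The 3 arrays of 48 h lay wholly below those of 0 h for 9 of the 10 genes, where 21.8% of all genes did so. At 72 h they did so again for 9 of 10, where the share of all genes was 25.3%. All 10 genes were lower in each of the 3 same-numbered pairs of arrays at both times, as were 30.7% of all genes at 48 h and 32.4% at 72 h.

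The arrays sat on 4 slides. Slide 1 held the first replicate of each time and slide 2 the second, while the third was split, with 72 h alone on slide 4. A fit with slide as a block therefore takes its 72 h changes from replicates 1 and 2 of 72 h only. Slides 1 and 2 were scanned on the same day, and slide 3 and slide 4 each on another day. The share of spots flagged as well above background was 63.9% to 66.8%, and the 75th percentile of an array lay between 1582 and 3681 intensity units, lowest on slide 3. The number of arrays limits the precision. As a check of the tissue, all 6 green tissue marker genes were above background on every array, and all 10 root markers were so on every array but for 1 gene on 1 array of 72 h. Values given below are log2 signals relative to the 75th percentile of the array. A change is a log2 difference from 0 h ± its standard error, from 3 arrays per time, and its adjusted p is limma's.

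A gene-by-gene account follows the order of the pathway. HEMA1 (AT1G58290) encodes the main glutamyl-tRNA reductase, the enzyme that limits the flow into the pathway. It read 3.33, 3.04 and 3.05 in replicates 1 to 3 at 0 h, then 0.72, 0.089 and 0.62 at 48 h, and 0.96, 0.68 and 0.33 at 72 h. Every array of the silver times was more than 2 log2 units below every array of 0 h. The change was -2.66 ± 0.22 at 48 h (a 6.34-fold fall, adjusted p = 0.000117) and -2.48 ± 0.22 at 72 h (5.59-fold, adjusted p = 0.000103). In a ranking of all genes by change, 1.34% fell further than HEMA1 at 48 h and 2.49% at 72 h.

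Magnesium chelatase has 3 kinds of subunit, and the transcripts of all 3 fell. CHLH (AT5G13630), which holds the porphyrin and is known from plastid-to-nucleus signalling as GUN5, read 5.03, 4.67 and 4.92 at 0 h, 2.52, 3.11 and 3.24 at 48 h, and 2.76, 2.69 and 2.46 at 72 h. The groups were well apart, and the change was -1.92 ± 0.20 at 48 h (3.78-fold, adjusted p = 0.000338) and -2.24 ± 0.20 at 72 h (4.72-fold, adjusted p = 0.000118). CHLI1 (AT4G18480), the main gene of the ATPase subunit, read 4.66, 5.15 and 5.51 at 0 h, 3.70, 3.91 and 3.67 at 48 h, and 3.69, 3.50 and 3.41 at 72 h. Its 0 h arrays were spread over 0.85 log2 units, with replicate 1 lowest, and still lay above all later arrays. The change was -1.34 ± 0.21 at 48 h (2.54-fold, adjusted p = 0.00188) and -1.57 ± 0.21 at 72 h (2.98-fold, adjusted p = 0.000649). CHLD (AT1G08520), the subunit that joins the other kinds, read 3.08, 3.14 and 3.88 at 0 h, 2.01, 2.13 and 2.47 at 48 h, and 2.12, 1.87 and 1.83 at 72 h. Replicate 3 was the highest of its group at 0 h and 48 h, and the times did not overlap. The change was -1.16 ± 0.23 at 48 h (2.24-fold, adjusted p = 0.00610) and -1.43 ± 0.23 at 72 h (2.69-fold, adjusted p = 0.00177).

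**Figure D1:**
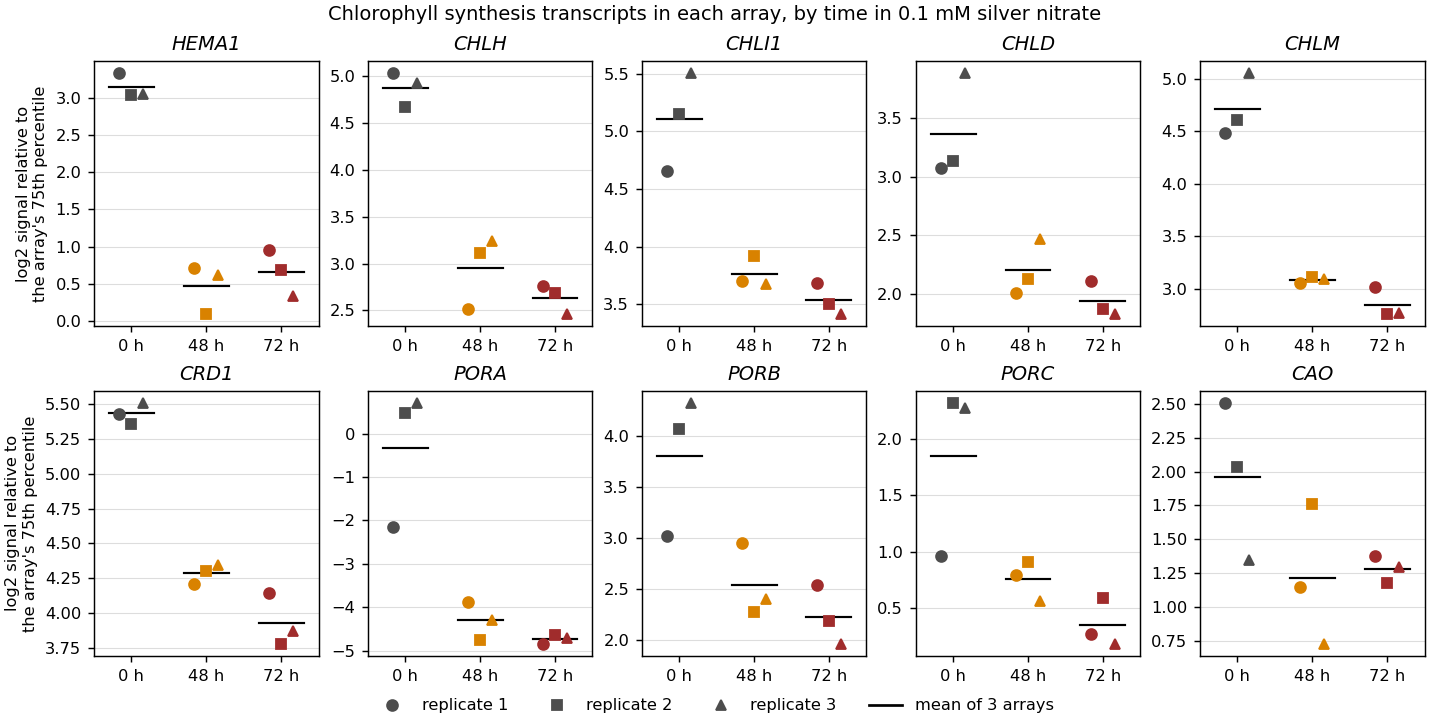
Log2 signal of each of the 10 genes relative to the 75th percentile of the array (vertical axis, scaled to each gene) at 0, 48 and 72 h in silver nitrate (horizontal axis), with 1 point per array and a line at the mean of 3. All genes but CAO have their 0 h points above all later points. Replicate 1 of 0 h is the lowest 0 h point of CHLI1, CHLD, CHLM, PORA, PORB and PORC.

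Between the chelatase and the light-driven reductase, CHLM and CRD1 fell at both times. CHLM (AT4G25080), the magnesium protoporphyrin IX methyltransferase, read 4.49, 4.61 and 5.06 at 0 h, 3.05, 3.11 and 3.09 at 48 h, and 3.02, 2.75 and 2.77 at 72 h. At 48 h its arrays differed by 0.055 log2 units at most, against a change of -1.63 ± 0.17 (adjusted p = 0.000265). At 72 h the change was -1.87 ± 0.17 (3.66-fold, adjusted p = 0.000105). CRD1 (AT3G56940), also called CHL27, is a diiron subunit of the cyclase that closes the fifth ring of the molecule. It read 5.43, 5.36 and 5.51 at 0 h, 4.21, 4.3 and 4.34 at 48 h, and 4.14, 3.78 and 3.87 at 72 h. Its 0 h arrays had an SD of 0.075, smaller than that of all but 7.66% of genes. The change was -1.15 ± 0.13 at 48 h (2.22-fold, adjusted p = 0.000426) and -1.50 ± 0.13 at 72 h (2.84-fold, adjusted p = 9.79e-05). CHLM and CRD1 were the only genes of the 10 whose 72 h arrays all lay below those of 48 h, by 0.032 and 0.066 log2 units, and neither passed the test (adjusted p = 0.787 and 0.435). Of all genes, 9.74% were ordered in that way.

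The 3 protochlorophyllide oxidoreductases reduce protochlorophyllide to chlorophyllide in the light. PORA is known as the form of dark-grown seedlings, whose transcript declines in light, PORB as a form present in the dark and in the light, and PORC as a form of light-grown tissue. PORA (AT5G54190) read -2.16, 0.48 and 0.71 at 0 h, -3.87, -4.75 and -4.3 at 48 h, and -4.85, -4.64 and -4.71 at 72 h. The 0 h arrays were spread over 2.87 log2 units (SD 1.6), a spread larger than that of 99.3% of genes, while those of 72 h lay within 0.21. The change was -3.98 ± 0.66 at 48 h (15.8-fold, adjusted p = 0.00255) and -4.41 ± 0.66 at 72 h (21.3-fold, adjusted p = 0.00118). Without replicate 1 of 0 h it was -4.90 ± 0.24 at 48 h and -5.33 ± 0.24 at 72 h. Without replicate 3 of 0 h it was -3.47 ± 0.66 and -3.89 ± 0.66, so its size depended on the array left out. Of all genes, 0.413% of genes fell further at 48 h and 0.518% at 72 h.

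PORB and PORC moved less than PORA, and replicate 1 was again their lowest array at 0 h. That array was also the lowest of 0 h for CHLI1, CHLD and CHLM and for most other enzyme genes described below, so this was not particular to the POR genes. PORB (AT4G27440) read 3.02, 4.07 and 4.33 at 0 h, 2.95, 2.28 and 2.40 at 48 h, and 2.54, 2.18 and 1.96 at 72 h. The lowest 0 h array was 0.077 above the highest 48 h array, both of replicate 1, so the groups were apart by that little. The change was -1.27 ± 0.34 at 48 h (2.41-fold, adjusted p = 0.0235) and -1.58 ± 0.34 at 72 h (3.00-fold, adjusted p = 0.00721). PORC (AT1G03630) read 0.96, 2.32 and 2.28 at 0 h, 0.79, 0.91 and 0.57 at 48 h, and 0.27, 0.59 and 0.18 at 72 h. Here the gap between 0 h and 48 h was 0.053, set again by replicate 1 of 0 h. The change was -1.10 ± 0.34 at 48 h (2.14-fold, adjusted p = 0.0393) and -1.50 ± 0.34 at 72 h (2.84-fold, adjusted p = 0.00869).

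The calls of PORB and PORC were the weakest of the 9. At 48 h that of PORB ended without any 1 of 4 arrays (replicates 2 and 3 of 0 h and of 48 h), with a highest adjusted p of 0.0805. The call of PORC at 48 h ended without any 1 array other than replicate 1 of 0 h, with a highest adjusted p of 0.130, and also without the filter on dim probes (adjusted p = 0.0565). With slide as a block the changes at 48 h kept their size by design, since each 48 h array shared its slide with 1 of 0 h. The adjusted p was then 0.0640 for PORB and 0.0530 for PORC. At 72 h both kept their calls without any 1 array (highest adjusted p 0.0307 and 0.0341), and with the block the adjusted p was 0.0876 for PORB and 0.0489 for PORC. Without replicate 1 of 0 h both falls were larger, at -1.66 and -1.54 at 48 h and -1.98 and -1.95 at 72 h. Without replicate 3 of 0 h both were smaller, at -1.01 and -0.89 at 48 h and -1.32 and -1.29 at 72 h.

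CAO (AT1G44446) encodes chlorophyllide a oxygenase, the Rieske-type enzyme that makes chlorophyll b. It read 2.51, 2.03 and 1.35 at 0 h, 1.15, 1.76 and 0.73 at 48 h, and 1.38, 1.18 and 1.29 at 72 h. The groups overlapped, since replicate 3 of 0 h was below the highest array of each later time. The change was -0.75 ± 0.33 at 48 h (adjusted p = 0.120, 95% interval -1.50 to -0.0078) and -0.68 ± 0.33 at 72 h (adjusted p = 0.141, interval -1.42 to 0.063). These intervals are not adjusted for the number of genes. At 48 h the interval holds the change of CHLD, and at 72 h it ends just short of it. Without replicate 3 of 0 h, CAO was called lower at both times (-1.06, adjusted p = 0.0337, and -0.99, adjusted p = 0.0370). With slide as a block it was called at 72 h (-0.96, adjusted p = 0.0495) and not at 48 h (adjusted p = 0.0579). That fit gives no weight to replicate 3 of 72 h, which differed from replicate 3 of 0 h by -0.056. The 72 h differences of replicates 1 and 2 were -1.13 and -0.85.

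**Figure D2:**
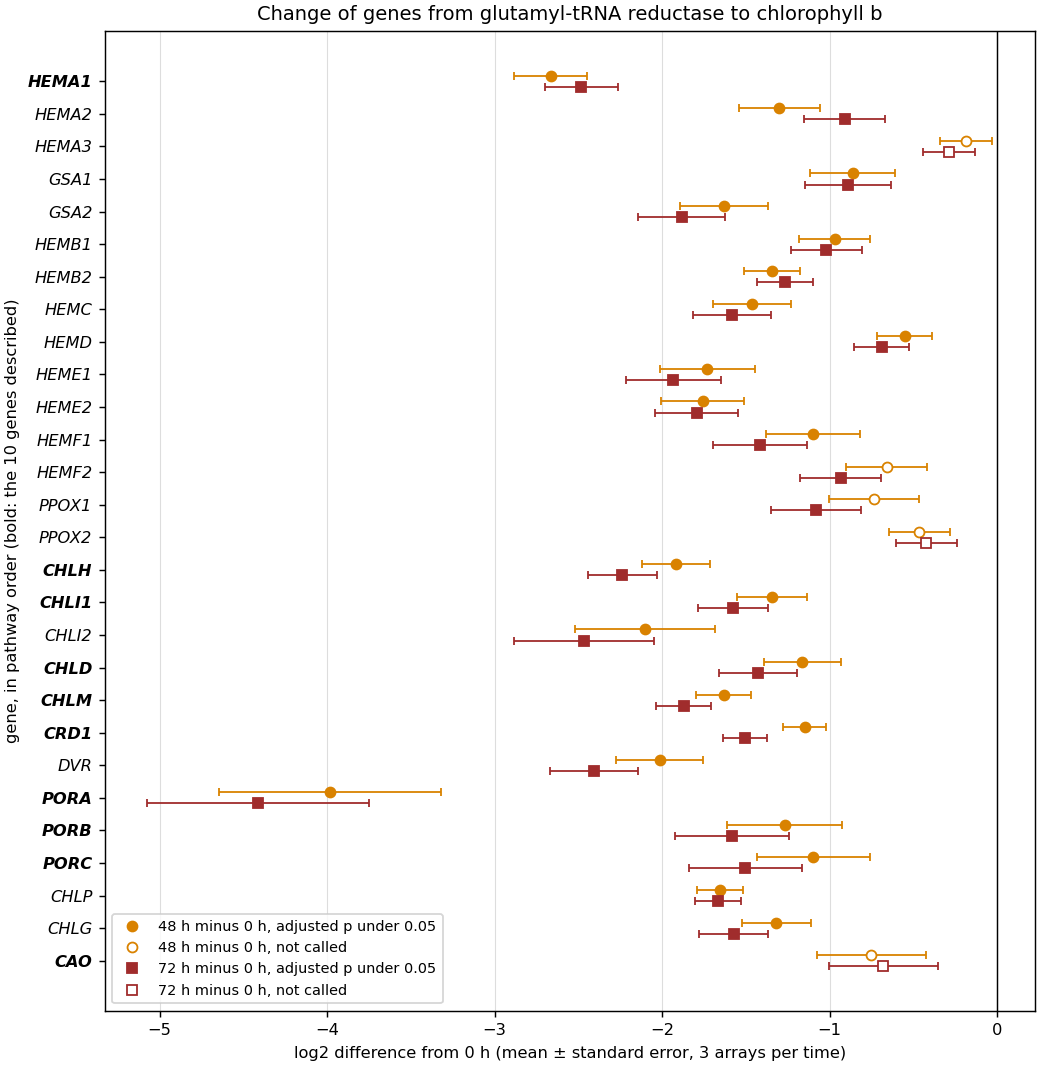
Log2 difference from 0 h ± standard error (horizontal axis) of 28 genes from glutamyl-tRNA reductase to chlorophyll b in pathway order (vertical axis, the 10 genes in bold), at 48 h (circles) and 72 h (squares). All means lie below 0, PORA lies farthest to the left, and open symbols mark genes that were not called, among them CAO at both times.

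Set against each other on the same slide, the arrays showed where the size of a fall depended on the replicate. HEMA1 gave -2.61, -2.95 and -2.43 on slides 1, 2 and 3 at 48 h. At 72 h it gave -2.37 and -2.36 on slides 1 and 2, and replicate 3, compared across slides 4 and 3, gave -2.72. CRD1 was as even, with -1.22, -1.06 and -1.17 on the slides of 48 h. PORA, in contrast, gave -1.71 on slide 1 and -5.23 and -5.01 on slides 2 and 3 at 48 h, and -2.69, -5.12 and -5.42 at 72 h. PORB gave -0.077, -1.80 and -1.93 at 48 h and -0.49, -1.89 and -2.37 at 72 h. PORC gave -0.17, -1.41 and -1.71 at 48 h and -0.69, -1.73 and -2.09 at 72 h. The smallest fall of each POR gene was thus on slide 1 at both times, as it was for CHLI1 and CHLM, whereas for CHLH and CAO slide 1 gave the largest fall at 48 h (-2.51 and -1.36). With slide as a block, HEMA1, CHLH, CHLI1, CHLD, CHLM, CRD1 and PORA stayed called at both times, with adjusted p between 0.000793 and 0.0215.

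**Figure D3:**
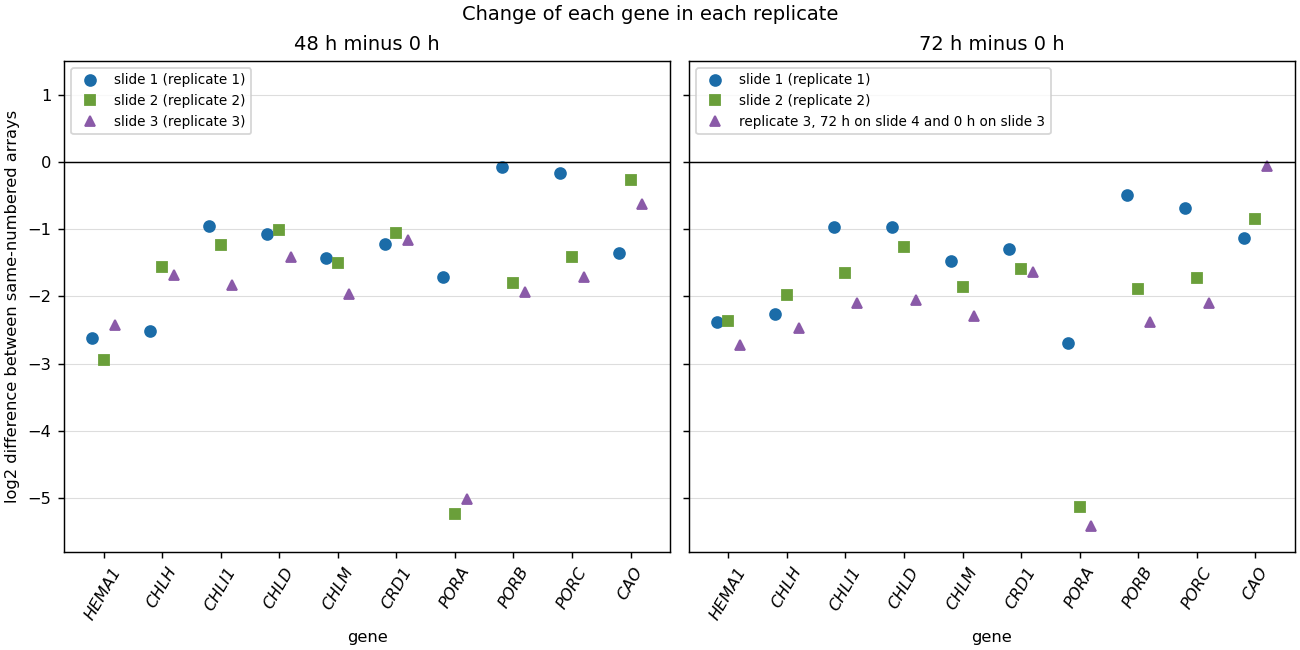
Log2 difference from 0 h between arrays of the same replicate number (vertical axis) for each of the 10 genes (horizontal axis), at 48 h (left) and 72 h (right). For PORA, PORB, PORC, CHLI1 and CHLM the circle of slide 1 lies nearest to 0 at both times, and for HEMA1 and CRD1 the 3 points lie close together.

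Genes that serve the same step were compared by their log2 ratio within each array, which does not depend on how arrays are scaled. Only the change of such a ratio has a meaning, since probes differ in brightness. For 5 pairs a two-sided exact permutation test set the 6 arrays of 48 h and 72 h against the 3 of 0 h. Its smallest possible p is 0.0238. The test treats all arrays as independent, although same-numbered arrays of 0 h and 48 h deviated together. Its p-values therefore do not allow for that dependence. The ratio of PORA to PORB lay between -5.18 and -3.59 at 0 h and between -7.39 and -6.66 later. It changed by -2.77 (exact p = 0.0238, adjusted p = 0.0397 over the 5 pairs), so PORA fell more than PORB. The ratio of PORA to PORC changed by -2.90, with the same exact p and adjusted p. PORB and PORC kept pace with each other more closely. Their ratio lay between 1.75 and 2.06 at 0 h and between 1.37 and 2.26 later, a change of -0.13 (exact p = 0.619).

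The other pairs joined a member to a sister gene. HEMA2, a further glutamyl-tRNA reductase gene, changed by -1.3 ± 0.24 at 48 h and by -0.91 ± 0.24 at 72 h. The ratio of HEMA1 to HEMA2 changed by -1.47, from between 1.02 and 1.93 at 0 h to between -0.49 and 0.63 later (exact p = 0.0238, adjusted p = 0.0397), so HEMA1 fell more. CHLI2, the lesser expressed gene of the ATPase subunit in textbook accounts, changed by -2.10 ± 0.42 at 48 h and -2.47 ± 0.42 at 72 h. The ratio of CHLI1 to CHLI2 rose by 0.82, with overlapping arrays, and did not pass after adjustment (exact p = 0.0476, adjusted p = 0.0595).

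**Figure D4:**
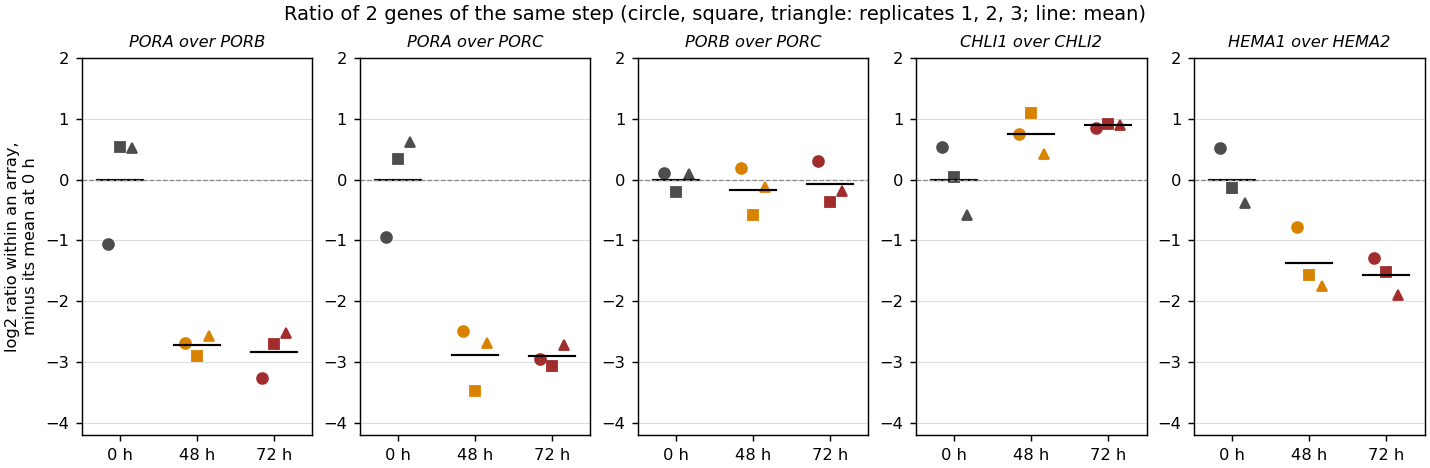
Log2 ratio of 2 genes of the same step within each array, minus its mean at 0 h (vertical axis), at 0, 48 and 72 h (horizontal axis), with 1 point per array and a line at the mean. PORA falls away from PORB and PORC, and HEMA1 from HEMA2, with no overlap between 0 h and later arrays, while the points of PORB over PORC overlap across all times.

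The profiles of the 10 genes over the 9 arrays were compared by the root mean square of the differences between their values, each gene centred on its own mean. CHLI1 and CHLM were the closest pair, 0.18 log2 units apart. CHLM was also the gene nearest to the mean profile of the 10, at 0.098. PORB (0.26) and PORC (0.26) had CHLI1 as their nearest member, HEMA1 had CHLH (0.44), and CAO had CRD1 (0.52). PORA was the farthest from every other member, at 1.17 from HEMA1 and 1.98 from CAO. Outside the 10 genes, PRPL28 (AT2G33450), a plastid ribosomal protein gene, was the named gene nearest to the mean profile (0.086, with changes of -1.77 and -1.91). GLYR2 (AT1G17650), a glyoxylate reductase gene, was at 0.089, PSRP3/1 (AT1G68590) at 0.089, PSRP4 (AT2G38140) at 0.090 and EMB3126 (AT3G63490) at 0.094.

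Most of the other 18 enzyme genes of the common stem and the chlorophyll branch fell. At 48 h 14 were lower, 0 higher and 4 not called, and at 72 h 16 were lower, 0 higher and 2 not called, with medians of -1.31 and -1.34. Of all genes, 15.8% were called lower at 48 h and 19.6% at 72 h. With slide as a block 15 of the 18 were lower at 48 h and 12 at 72 h. GSA1, HEMB1, HEMD and HEMF2 then lost their calls at 72 h (adjusted p between 0.0571 and 0.135). The largest changes at 72 h, besides CHLI2, were those of DVR (AT5G18660, -2.41 ± 0.26, adjusted p = 0.000256), which reduces the 8-vinyl group, and of HEME1 (AT3G14930, -1.93 ± 0.28, adjusted p = 0.00104), a uroporphyrinogen decarboxylase gene. HEMA3 (-0.29) and PPOX2 (-0.42), the latter a protoporphyrinogen oxidase gene, were not called at 72 h and are named after their values were seen.

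The heme, bilin and siroheme branch held calls in both directions. Of 9 genes, 2 rose and 2 fell at 48 h, and 2 rose and 4 fell at 72 h, with 5 and 3 not called. Over all genes, 14.1% were called higher and 15.8% lower at 48 h, and 16.7% higher and 19.6% lower at 72 h, so with 9 genes the counts at 48 h are near the background. Both rises were heme oxygenase genes, whose enzymes open the heme ring. HO4 (AT1G58300) changed by 2.83 ± 0.53 (7.11-fold higher, adjusted p = 0.00351) and HO3 (AT1G69720) by 2.40 ± 0.28 (5.30-fold, adjusted p = 0.000342) at 72 h. At 0 h HO4 was dim, at -5.95, -5.78 and -6.11, where the lowest signals flagged above background were -7.49, -7.55 and -7.00. The size of its rise is therefore uncertain. With normexp background correction the changes of HO4 and HO3 at 72 h were 1.25 and 1.49, and with slide as a block HO4 gave 2.19. Whether the HO3 and HO4 probes share signal was not checked, so the rises may not be separate. HO1 (AT2G26670), the main heme oxygenase gene of the phytochrome chromophore, named after its value was seen, gave -0.37 ± 0.15 at 72 h (adjusted p = 0.0851). FC1 (AT5G26030), a ferrochelatase gene, gave -1.39 ± 0.46 at 72 h (adjusted p = 0.0424), a call lost when any of 5 arrays was left out (replicates 2 and 3 of 0 h, 2 of 48 h, and 1 and 3 of 72 h, highest adjusted p 0.130). That of HO4 at 48 h (1.88 ± 0.53, adjusted p = 0.0274) was likewise lost when any array of 0 h, or replicate 1 or 2 of 48 h, was left out (highest adjusted p 0.0723). With the replicate number as a block, 5 genes of the branch were lower at 48 h, and with slide as a block 4. FC1 was among them (-1.22 at 48 h, adjusted p = 0.0758 with no block, 0.0114 with replicate and 0.00253 with slide). The number of falls at 48 h was 0 without replicate 2 of 0 h or replicate 1 or 2 of 48 h, 1 without replicate 3 of 48 h and 4 without replicate 1 of 0 h. At 72 h it was 2 without replicate 2 of 0 h or replicate 1 of 72 h.

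Genes of proteins that regulate the enzymes fell with them. Of 8, all 8 were lower at 48 h and 7 at 72 h, where 15.8% and 19.6% of all genes were called lower. With slide as a block 7 of the 8 were lower at 48 h and 6 at 72 h. LIL3:1 (AT4G17600), which anchors enzymes of the late steps in the thylakoid membrane, changed by -1.97 ± 0.26 at 72 h (adjusted p = 0.000678). LCAA (AT5G58250), needed by the cyclase, changed by -1.54 ± 0.22 (adjusted p = 0.00104), and GUN4 (AT3G59400), which stimulates magnesium chelatase, by -1.54 ± 0.20 (adjusted p = 0.000643).

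Of 8 transcription factor genes known to act on the pathway, 1 was called lower at 48 h and 2 at 72 h, and 0 higher at either time. These counts are near the background of 15.8% and 19.6% of all genes. GNC (AT5G56860), a GATA factor that promotes greening, changed by -2.19 ± 0.34 at 48 h (adjusted p = 0.00186) and -1.91 ± 0.34 at 72 h (adjusted p = 0.00282). PIF3 (AT1G09530), a phytochrome-interacting factor, changed by -0.92 ± 0.20 at 72 h (adjusted p = 0.00681). GLK1 and GLK2, activators of chlorophyll synthesis and antenna genes that are named after their values were seen, gave 0.29 ± 0.24 and -0.57 ± 0.29 at 72 h and were not called (adjusted p = 0.388 and 0.165). With slide as a block GLK2 was called lower at 72 h (-0.90, adjusted p = 0.00901). At 48 h the number of lower factor genes was 3 with slide as a block or without replicate 1 of 0 h, and 2 without replicate 3 of 0 h. With the replicate number as a block 2 were lower at 48 h, PIF3 (-0.55, adjusted p = 0.0347) besides GNC, and GLK1 was higher (0.52, adjusted p = 0.0483).

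**Figure D5:**
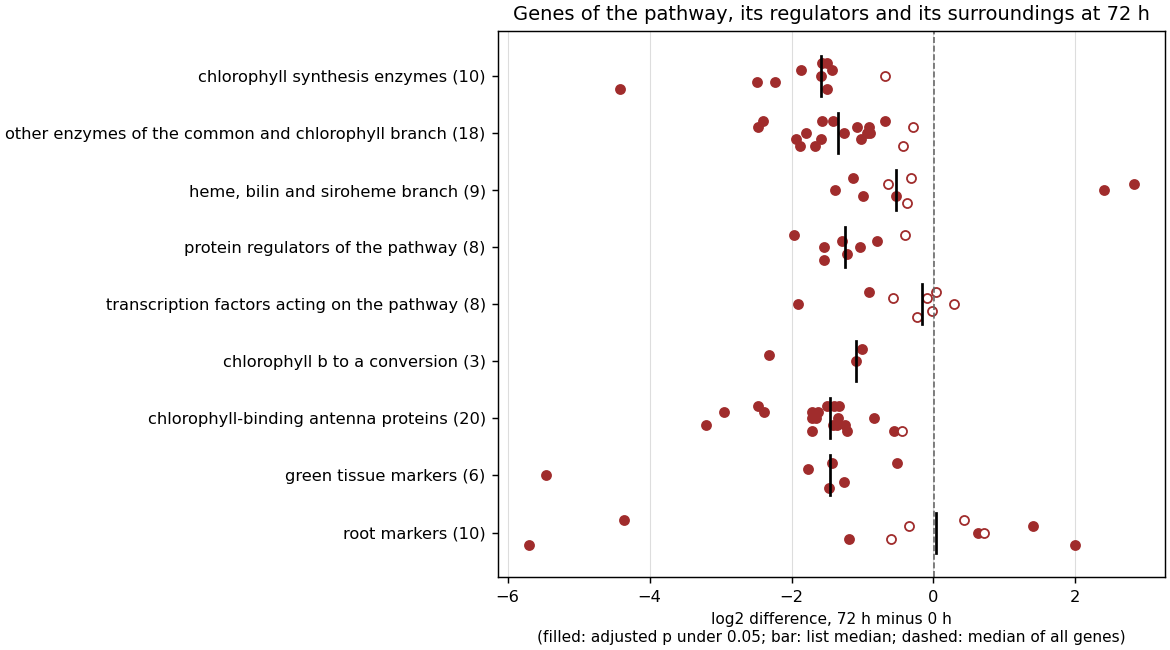
Log2 difference between 72 h and 0 h (horizontal axis) of every gene of 9 lists (vertical axis, with the number of genes), filled where the adjusted p is under 0.05, with the list median as a bar. The enzymes, protein regulators and antenna genes lie to the left of 0, the heme branch holds 2 genes to the right near 2.40 and 2.83, and most transcription factor genes lie near 0.

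Chlorophyll b turnover and the proteins that bind chlorophyll were set beside the enzymes. All 3 genes for the conversion of chlorophyll b to a fell at both times. They were NYC1 (AT4G13250, -2.32 ± 0.25 at 72 h, adjusted p = 0.000228), NOL (AT5G04900, -1.10 ± 0.16) and HCAR (AT1G04620, -1.01 ± 0.15). Of 20 antenna protein genes, 17 fell and 0 rose at 48 h, and 19 fell and 0 rose at 72 h, with a median of -1.45 at 72 h. Over all genes the share called lower was 15.8% at 48 h and 19.6% at 72 h. LHCB2.3 (AT3G27690) changed by -3.21 ± 0.26 and LHCA6 (AT1G19150) by -2.96 ± 0.28 at 72 h. LHCB1.4 (AT2G34430) gave -2.48 ± 0.77 (adjusted p = 0.0347), a call lost when any array of 0 h, replicate 3 of 48 h, or replicate 2 or 3 of 72 h was left out (highest adjusted p 0.118). Without replicate 1 of 72 h it gave -3.46. Near-identical LHCB genes may share signal on their probes.

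By the count of calls, markers of green tissue moved with the enzymes and those of roots did not do so as a list. The summed signal of the root markers was nevertheless lower on every array of 48 h than on any of 0 h. Of 6 green tissue markers, 5 fell at 48 h and 6 at 72 h, where 15.8% and 19.6% of all genes were called lower. The summed signal of these markers, in units of the 75th percentile, was 407 to 502 at 0 h. It was 188 to 238 at 48 h and 191 to 221 at 72 h. CA1 (AT3G01500), a chloroplast carbonic anhydrase gene, changed by -5.46 ± 0.37 at 72 h, RCA (AT2G39730), of Rubisco activase, by -1.77 ± 0.19, and RBCS2B (AT5G38420), of the Rubisco small subunit, by -1.47 ± 0.35. With slide as a block RBCS2B (adjusted p = 0.0733) and RBCS1A (adjusted p = 0.076) were not called at 72 h. The block thus left 4 of the 6 green tissue markers lower at 72 h, and 6 at 48 h. Of 10 root markers, 1 rose and 1 fell at 48 h, and 3 rose and 3 fell at 72 h. Over all genes, 14.1% were called higher and 15.8% lower at 48 h, and 16.7% and 19.6% at 72 h. With 10 genes, the counts of the root markers are near these shares. The summed signal of the root markers was 5.20 to 8.02 at 0 h, 4.06 to 5.09 at 48 h and 3.98 to 5.31 at 72 h. At 48 h 2 root markers rose without replicate 1 of 0 h, and 2 fell without replicate 1 or 2 of 72 h. The root hair genes COBL9 (AT5G49270) and EXPA7 (AT1G12560) changed by -5.71 ± 0.46 and -4.36 ± 1.04 at 72 h. EXPA7 was above background there on 2 of 3 arrays and read -9.50, -4.68 and -6.01, so that its change was -2.97 without replicate 1 of 72 h and -5.38 without replicate 2. With slide as a block it was not called (adjusted p = 0.0535), and 1 root marker was lower at 72 h. WOX5 (AT3G11260), of the root stem cell niche, changed by 2.0 ± 0.19. With normexp the changes at 72 h were -4.36 for COBL9, -2.76 for EXPA7 and 0.95 for WOX5. The part of tissue makeup in the fall of the chlorophyll genes was not tested.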

How the data were processed

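RNA of each of 9 samples was labelled with Cy3 and hybridised to an Agilent array with 1 colour. Per the file headers, the deposited intensity (gProcessedSignal) came from Agilent Feature Extraction 9.5.3.1, with background subtracted, a spatial trend removed and no scaling between arrays. The deposited flags (other columns) mark spots above background, saturated or outlying. The authors' value table holds a ratio on a linear scale with unstated scaling. On 22644 probes, 99.969% had log2 differences between arrays equal to those of the intensities (within 0.01) up to 1 constant per array. Its medians were 0.901 to 1.11, and it was used only as an alternative. The genome build of the probes is not given in the sources used here, so positions are not printed.

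Control spots were left out, as were 80 outlier spots, none of the 10 genes. No spot was saturated. Each array was scaled by subtracting its 75th percentile on the log2 scale. A probe was kept where all 3 arrays of some time had it well above background, and the brightest probe stood for a locus. A locus was known for 26236 of 37478 probes, and 26019 matched the reference gene table. With limma 3.58.1 in R 4.3.3, 1 mean per time was fitted to all 9 arrays, two-sided, adjusted by Benjamini-Hochberg over 21043 genes and called at 0.05. The model was tested on simulated data with independent noise for each array and changes put in at 48 h only. That test does not cover arrays that deviate together. The exact tests used scipy 1.17.1 in Python 3.11.15.

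Alternatives were other scalings, background correction (normexp, offset 50, on the median signal, since the files hold no mean signal), the value table, filters, probe means, slide or replicate as a block, and fewer arrays. Same-numbered arrays of 0 h and 48 h deviated together (correlations of 0.25, 0.32 and 0.40 across genes). The numbers were taken to pair them, but each such pair shares a slide, so pairing and slide cannot be told apart. Same-numbered arrays of 72 h did not all deviate with the others (-0.038 to 0.21). The main fit has no block. The rule for names took all 10 genes, up to 3 called genes with the largest change at 72 h per list, and the 5 nearest profiles. The genes and lists were chosen with earlier results of these data known.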

Additional observations from a re-analysis of the deposited data

How the results depend on the processing

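Under 19 alternatives all 380 recomputed changes of the 10 genes from 0 h were negative. Many of these changes repeat the main value by design and add no support. This holds for the filters and probe means, since each gene had 1 probe, above background on all arrays. It also holds for the replicate block, the slide block at 48 h, and leaving out an array of the time not compared. HEMA1, CHLH, CHLI1, CHLD, CHLM and CRD1 were called lower in each of the 19 alternatives at both times. PORA was called lower in each at 72 h and in 18 of 19 at 48 h. The exception was leaving out slides 3 and 4, where PORA gave -3.47 at 48 h (adjusted p = 0.0599). Without those slides, which leaves 2 arrays per time, 6 of the 10 genes were called at 48 h and 7 at 72 h. Over all genes 1737 were then lower and 1287 higher at 48 h (3330 and 2968 with all arrays), and 2550 lower and 1868 higher at 72 h (4123 and 3505 with all arrays). The deposited values gave 5707 higher genes at 72 h. Of all calls at 48 h, 47.1% were higher in the main setting, 38.5% with median scaling, 39.5% with normexp and 59.5% with the deposited values. At 72 h the share was 45.9%, and 65.2% with the deposited values, whose median over all genes was 0.15 at 48 h and 0.23 at 72 h. In those values 9 of the 10 genes were still lower at both times. Between 72 h and 48 h limma called 0 genes (1941 at an unadjusted p under 0.05). Median scaling gave 1 lower and 1 higher, normexp 1 lower, quantile normalization 1 lower and 2 higher, the deposited values 1 higher, and leaving out 1 array 0 to 4 lower and 0 to 7 higher. With the replicate block, 2 genes were lower and 4 higher between 72 h and 48 h, 9 of the 10 genes were lower at both times, and no call of the 10 changed. At 48 h the block also added LHCB1.4 (adjusted p = 0.0207) and RBCS1A (0.0491) to the lower calls and removed HEMD (0.0593) and LHCB1.3 (0.0612). It changed no call of the listed genes at 72 h. For the pair ratios, fewer arrays raise the smallest possible p (to 0.133 for 2 against 4), so lost calls there say nothing of stability. Without slides 3 and 4 the changes were -2.63 (PORA over PORB), -2.69 (PORA over PORC) and -1.49 (HEMA1 over HEMA2). Leaving out 1 array gave -3.30 to -2.50, -3.37 to -2.59 and -1.66 to -1.21 for these pairs, and 0.53 to 1.1 for CHLI1 over CHLI2, which was called without replicate 3 of 48 h (0.90, adjusted p = 0.0446). With normexp the rises of HO4 (0.59, adjusted p = 0.329) and WOX5 (0.49, adjusted p = 0.108) at 48 h were not called.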
